A study of Mus musculus with 20 samples.

Results

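The livers compared here came from mice without PPARα and from mice that express the human form of the receptor, all kept on vehicle water without perfluorooctanoic acid (PFOA), a fluorinated surfactant. They are the 9 vehicle libraries of the 20 in the study: 4 PPARα knockout libraries (KO, 1 female and 3 males) and 5 libraries from mice with human PPARα (hPPARa, 3 females and 2 males). The libraries were taken by their titles, with earlier results of these data known, and the 11 PFOA libraries serve only for side values.

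Every mouse drank water with 0.5% sucrose from weaning for 6 to 7 weeks and ate a diet modelled on American intake, with 51.8% of its energy from carbohydrate, 33.5% from fat and 14.7% from protein. In the PFOA groups the same water held PFOA at 8 µM. The series title calls the human receptor a transgene. The sources used here do not give its promoter, whether the mouse receptor is absent beside it, which part of Ppara is missing in KO, or the strain. No group with the normal mouse receptor was analysed here, so every difference is between KO and mice with the human receptor. The labels do not state that the libraries of a group come from separate mice, so p-values describe the spread between these libraries, which may be technical. Genotype was deposited in separate count tables, and an effect of the table and of the genotype cannot be told apart.

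PPARα is a nuclear receptor that binds fatty acids and their derivatives. It pairs with RXR on DNA and, in liver, drives genes for fatty acid uptake, mitochondrial and peroxisomal β-oxidation, microsomal ω-oxidation and ketone body synthesis. It is best known for the fasting response, when the liver turns to fat as its fuel.

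Total counts ran from 14973673 to 17951324 per vehicle library. Sex set the first principal component of the 9 libraries (45% of the variance). The KO female library stood apart on the next one (16%), with a score of 49.8 against −26.5 to 13.3 in the other 8. It also held a few counts of Y-linked genes, such as 3.07 CPM (counts per 1000000 of the library) of Eif2s3y against 42.8 to 67.4 in the 5 male libraries and at most 0.417 in the hPPARa females. Such counts were not particular to that library. Among the PFOA libraries, KO female replicate 2 had 4.66 CPM of Eif2s3y. KO male replicate 2 had 30.7 CPM of Xist, against at most 4.39 in the other male libraries. Because the KO female vehicle library is the only one of its group, each main result is given with and without it. Hepatocyte markers made up 142900 to 163800 CPM in the KO libraries and 164700 to 255600 CPM in the hPPARa libraries, so the sums narrowly did not overlap. Of the 19 tested markers, 0 were called different, which cannot be told apart from the 1.6% called among all genes tested. The counts are from bulk tissue, where fewer cells of a type and less RNA per cell cannot be told apart.

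Ppara itself gave 16.4 to 26.2 CPM in the hPPARa libraries and 19.6 to 22.1 CPM in the KO libraries, so the groups overlapped. The log2 fold change, KO minus hPPARa with sex as a covariate, was −0.13 ± 0.14 (SE; adjusted p = 0.692). Counts were summed over the whole gene, and the missing part of the gene is not known here, so this value does not check the genotype label. Of the 20 genes next to Ppara in the RefSeq table of GRCm38.p6, 15 were in the count tables and 8 were tested, and 0 were called, with a median log2 fold change of −0.0956. So few genes cannot be told apart from the 1.6% called among all genes tested.

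Among 13486 genes tested, 216 differed between KO and hPPARa at an adjusted p under 0.05 (1.6% of those tested; edgeR's quasi-likelihood test, Benjamini-Hochberg adjustment). In KO, 113 were higher (0.838%) and 103 lower (0.764%), with changes of 2-fold or more for 57 and 38 of them. The list counts below stand beside these shares, and a single call in a list is no result about that list. The lists were chosen with earlier results of these data known. The CPM values of the groups did not overlap for 68 of the higher and 92 of the lower genes. Over all genes tested, 511 had every KO library above every hPPARa library (3.79%) and 479 every KO library below (3.55%). Without the KO female, 67 genes were called (0.492%), 22 higher (0.161%) and 45 lower (0.33%). Of the original calls, 17 of the 113 higher and 30 of the 103 lower genes were among them. In all 9 fits that left out 1 library, 9 higher and 24 lower genes stayed called. Those 24 included Plin5, Slc25a20, Cpt2, Acadvl, Eci2, Decr2, Acaa1b, Pxmp4, Angptl4 and Cyp4a32, which are described first. Of the other called genes named below, Acpp, Rpl29, Rab30, Slc25a34, Qpct, Cebpb, Meg3, Rian, Serpinb1a, Blnk, Asns, Bckdhb, Spp1 and Col1a1 also held in those 9 fits, and the rest lost their call without at least 1 library.

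Of 26 listed genes of mitochondrial fatty acid oxidation and ketone synthesis, all tested, 6 fell in KO and 0 rose, and 21 had a negative log2 fold change. Their median was −0.351, beside 0.0116 over all genes tested, where 48.2% were negative and 0.764% were called lower. Without the KO female, 5 were lower, with a median of −0.264. The genes that fell include the steps that bring fatty acids into the matrix and the first dehydrogenation of long chains, and the plot of oxidation and peroxisome genes gives their levels by library.

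Slc25a20 encodes the carrier that moves acylcarnitines across the inner mitochondrial membrane. The hPPARa females had 85.3, 71.8 and 86.5 CPM and the hPPARa males 85.1 and 71.9, against 23.8, 24.6 and 18.3 in the KO males and 26.8 in the KO female. No KO library came near the lowest hPPARa library, and the sexes were alike. The log2 fold change was −1.73 ± 0.12 (adjusted p = 2.83e-05), and −1.82 without the KO female (adjusted p = 0.000225).

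Cpt2, which turns the imported acylcarnitine back into acyl-CoA, had 117, 118 and 127 CPM in hPPARa females, 149.9 and 119 in hPPARa males, 56.8, 51.9 and 56.9 in KO males and 71.0 in the KO female. The groups were apart, with a log2 fold change of −1.08 ± 0.12 (adjusted p = 0.000707). Acadvl, the very-long-chain acyl-CoA dehydrogenase, ranged from 65 to 97.3 CPM in hPPARa and from 40.4 to 49.8 CPM in KO, a log2 fold change of −0.94 ± 0.13 (adjusted p = 0.00292). Both calls held without the KO female, at −1.29 and −1.16.

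Etfb, a subunit of the flavoprotein that takes electrons from the dehydrogenases, fell by 0.79 ± 0.11 on the log2 scale (adjusted p = 0.00433) and lost its call without the KO female (adjusted p = 0.0511). Eci1, a mitochondrial enoyl-CoA isomerase that brings unsaturated chains into the spiral, fell as well, at −1.08 ± 0.19 (adjusted p = 0.0193). Its call was also lost without that library (adjusted p = 0.132).

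Cpt1a and Pdk4 did not follow the genes above. Cpt1a, the outer-membrane enzyme that commits fatty acids to import, had 304 to 463 CPM in hPPARa, 401, 393 and 284 in KO males and 765 in the KO female. Its log2 fold change of 0.31 ± 0.21 did not pass (adjusted p = 0.507), and it was −0.09 without that library. Pdk4, the kinase that holds back glucose oxidation, had 3.36 to 4.81 CPM in hPPARa, 3.79, 4.06 and 13.4 CPM in KO males and 14.7 in the KO female (log2 fold change 1.33 ± 0.40, adjusted p = 0.137). Only 1 KO male and the KO female lay above the hPPARa range.

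**Figure D1:**
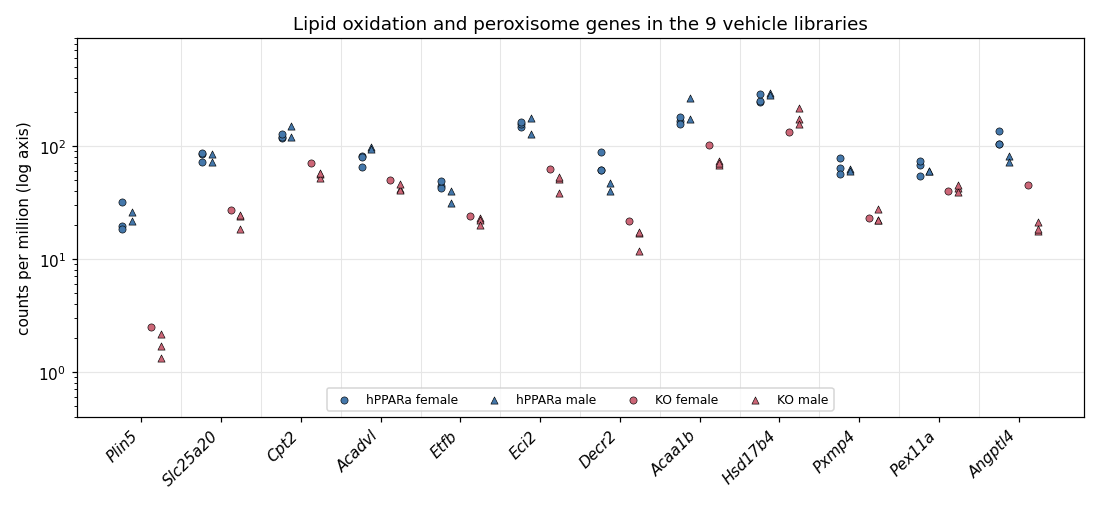
CPM (log axis) of 12 oxidation, peroxisome and droplet genes in each vehicle library, with 1 point per library, circles for females, triangles for males, blue for hPPARa and red for KO. For all 12 genes the 4 KO points lie below the 5 hPPARa points, with the widest gap for Plin5 (1.33 to 2.47 against 18.5 to 31.7 CPM).

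Of 30 listed genes of peroxisomal oxidation, 29 were tested and 4 fell in KO, with 0 called higher, 25 negative values and a median of −0.397. Over all genes tested, 0.764% were called lower. Without the KO female, 3 fell, with a median of −0.544. Eci2, an isomerase for unsaturated chains, had 127 to 177 CPM in hPPARa, 50.6, 52.5 and 38.3 in KO males and 62.9 in the KO female (log2 fold change −1.54 ± 0.14, adjusted p = 0.000145). Decr2, the peroxisomal dienoyl-CoA reductase that also serves unsaturated chains, had 61.0, 88.7 and 60.6 CPM in hPPARa females, 47.3 and 39.8 in hPPARa males, 17.1, 11.8 and 17.1 in KO males and 21.4 in the KO female. The difference was −1.58 ± 0.16 (adjusted p = 0.000429). Acaa1b, a peroxisomal thiolase with a close relative in Acaa1a that may share its reads, fell by 1.27 ± 0.18 on the log2 scale (adjusted p = 0.00696). Hsd17b4, the bifunctional enzyme of branched-chain and bile acid precursor oxidation, was at 244 to 291 CPM in hPPARa and 133 to 216 CPM in KO. Its log2 fold change of −0.78 ± 0.13 (adjusted p = 0.0113) lost its call without the KO female (adjusted p = 0.118), while the other three kept theirs.

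Ehhadh, the L-bifunctional enzyme and a textbook marker of PPARα activation, was not among the calls. It had 161 to 268 CPM in hPPARa and 133 to 182 CPM in KO, with overlapping groups and a log2 fold change of −0.25 ± 0.13 (adjusted p = 0.37).

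Of 20 genes for peroxisome assembly and membrane, 2 fell and 0 rose, with a median of −0.0553. Over all genes tested, 0.764% were called lower. Pxmp4, a peroxisomal membrane protein, had 55.9 to 78.2 CPM in hPPARa and 21.9 to 27.4 CPM in KO (log2 fold change −1.42 ± 0.13, adjusted p = 0.000128; −1.35 without the KO female). Pex11a, which promotes peroxisome division, had 54.3 to 74.0 CPM in hPPARa and 38.6 to 45.2 CPM in KO. That difference of −0.59 ± 0.12 (adjusted p = 0.025) did not pass without the KO female (adjusted p = 0.206).

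Microsomal ω-hydroxylation, the Cyp4a route, had 1 of 11 tested genes lower and 0 higher, with a median of 0.124. Cyp4a32 had 14.7, 8.50 and 4.74 CPM in hPPARa females, 11.8 and 3.69 in hPPARa males, 0.0654, 0.133 and 0.124 in KO males and 0 in the KO female. These KO values are 5 counts in all, against 701 in hPPARa, and the ratio per total count was 114-fold, with a 95% interval of 48.6 to 352 for counting error only. The adjusted p was 0.00527, and 0.0418 without the KO female. Cyp4a10, the hydroxylase most often used as a receptor readout, had 47.3, 62.2 and 84.4 CPM in hPPARa females, 17.1 and 4.55 in hPPARa males and 0.309 to 2.91 CPM in KO. Every KO library was below every hPPARa library, but the hPPARa libraries spread widely, and the log2 fold change of −3.91 ± 1.08 did not pass (adjusted p = 0.147). It was −2.59 without the KO female (adjusted p = 0.348), and DESeq2 called it (adjusted p = 0.00447). For Cyp4a14 the ranges were 4.09 to 103 CPM and 0.589 to 4.39 CPM, with a log2 fold change of −3.29 ± 1.21 (adjusted p = 0.255), or −1.77 without the KO female (adjusted p = 0.515). In both genes the hPPARa females were above the hPPARa males. Genes of the Cyp4a family are near-identical in places, so reads may be shared between them.

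The receptor pair binds a direct repeat of AGGTCA with 1 base between the copies, AGGTCANAGGTCA. This string was looked for on both strands in the 250 bases before each RefSeq gene start (GRCm38.p6; N matches any base, so 12 letters count). With up to 2 mismatches it was found in 340 of the 10255 tested genes that have a promoter in the table (3.32%). It was found in 2 of 75 genes called lower (2.67%), in 2 of 84 called higher (2.38%), and in 5 of 44 genes of the mitochondrial and peroxisomal lists (11.4%). An exact copy was in 5 promoters of all genes tested (0.0488%) and in 0 of the called genes or list genes. The oxidation genes with a match, Acot12 (1 mismatch), Cat, Etfa, Acot4 and Echs1, had log2 fold changes from −0.21 to −0.01, and none was called. So few genes with a match cannot tell whether a match goes with a fall. Their promoters are shown with the match in capitals, in the gene's own direction.
Acot12, chr13:91741391-91741443 (+): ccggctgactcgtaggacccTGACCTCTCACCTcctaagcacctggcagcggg
Cat, chr2:103485325-103485377 (-): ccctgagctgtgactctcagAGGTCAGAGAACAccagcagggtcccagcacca
Etfa, chr9:55512288-55512340 (-): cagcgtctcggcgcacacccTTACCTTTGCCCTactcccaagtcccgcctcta
Acot4, chr12:84038346-84038378 (+): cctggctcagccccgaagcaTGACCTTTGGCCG
Echs1, chr7:140116472-140116524 (-): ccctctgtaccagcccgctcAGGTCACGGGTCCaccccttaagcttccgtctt

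Of the genes that fell, the promoters of Plin5, Slc25a20, Eci2 and Etfb are shown at their closest stretch, again in capitals. The closest stretch differed at 3 of 12 letters in Plin5 and Etfb and at 4 in Slc25a20 and Eci2. The share of all promoters that come as close was not counted. It starts 177 bases before the gene start in Plin5 and 64 bases before it in Slc25a20. These windows are short, and no match within them says nothing of binding elsewhere in the gene.
Plin5, chr17:56117693-56117745 (-): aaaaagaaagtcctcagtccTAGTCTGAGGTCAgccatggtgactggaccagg
Slc25a20, chr9:108662052-108662104 (+): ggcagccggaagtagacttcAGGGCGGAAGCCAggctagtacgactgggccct
Eci2, chr13:34994328-34994380 (-): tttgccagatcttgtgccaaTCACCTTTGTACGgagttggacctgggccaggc
Etfb, chr7:43443910-43443962 (+): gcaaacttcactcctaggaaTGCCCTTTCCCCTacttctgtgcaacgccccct

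Plin5, a coat protein that ties lipid droplets to mitochondria, had the smallest adjusted p of all genes tested. The hPPARa females had 19.6, 18.5 and 31.7 CPM and the hPPARa males 21.7 and 26.2, against 1.70, 1.33 and 2.17 in KO males and 2.47 in the KO female. Its log2 fold change was −3.57 ± 0.23 (adjusted p = 2.55e-05; −3.78 without the KO female). It was the only call among 21 tested genes of lipid droplets and fatty acid uptake, whose median was −0.0234. Plin2, the general droplet coat, had 127 to 231 CPM in hPPARa, 112 to 216 in KO males and 315 in the KO female, with a log2 fold change of 0.19 ± 0.31 (adjusted p = 0.819) that turned to −0.33 without the KO female. Cd36, a fatty acid transporter, gave −0.75 ± 0.19 (adjusted p = 0.0813), and Fabp1, the liver fatty acid binding protein, −0.95 ± 0.25 (adjusted p = 0.0949). Cidec, which enlarges droplets, stayed at or below 4.73 CPM in every library and gave 0.67 ± 0.30 (adjusted p = 0.296).

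Among 20 tested secreted and fasting-linked genes, 2 fell and 0 rose, beside 0.764% and 0.838% of all genes tested. Angptl4, a secreted inhibitor of lipoprotein lipase, had 104, 103 and 134 CPM in hPPARa females, 81.9 and 72.1 in hPPARa males, 21.2, 17.5 and 18.2 in KO males and 45 in the KO female. The KO males sat together, with the KO female between them and the hPPARa libraries, and the log2 fold change was −1.75 ± 0.15 (adjusted p = 0.000113; −2.02 without the KO female). Retsat, the retinol saturase, was called at −0.85 ± 0.18 (adjusted p = 0.0434), with overlapping groups. Its level of 49.8 CPM in the KO female stood against 111 to 133 in KO males and 113 to 221 in hPPARa, and without that library the adjusted p was 0.278. Vnn1, a pantetheinase, had 9.45 to 29.8 CPM in hPPARa females, 1.25 to 1.89 in hPPARa males and 0.371 to 2.16 in KO (log2 fold change −2.16 ± 0.62, adjusted p = 0.132; −1.18 without the KO female, adjusted p = 0.627). Fgf21, the fasting hormone, was too low to be tested, at 0 to 2.47 CPM.

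Lists of fat and sterol genes held 0 or 1 call each, beside 1.6% of all genes tested, which is no result about the lists. Of 29 tested genes of fatty acid and triglyceride synthesis, 1 was called higher and 0 lower, with a median of −0.0961. The call was Acacb, the acetyl-CoA carboxylase that restrains Cpt1 (0.59 ± 0.13, adjusted p = 0.0487), and it was lost without the KO female (adjusted p = 0.414). Scd1, the stearoyl-CoA desaturase, had 3875 to 10749 CPM in hPPARa and 402 to 2272 CPM in KO. The groups were apart, but the spread was wide, and −2.03 ± 0.63 did not pass (adjusted p = 0.183). Fasn, the fatty acid synthase, gave −0.64 ± 0.21 (adjusted p = 0.15). Of 24 tested cholesterol synthesis genes, 1 fell: Tm7sf2, a sterol reductase, at −0.82 ± 0.14 (adjusted p = 0.0143; 0.131 without the KO female). Of 28 lipoprotein genes, 1 rose: Apom, the carrier of sphingosine phosphate, at 0.74 ± 0.15 (adjusted p = 0.027; 0.307 without the KO female). Of 23 genes of bile acid handling, 0 were called. Cyp7a1, which starts the classical route of bile acid synthesis, had 441 to 644 CPM in hPPARa, 35.1, 76.4 and 287 in KO males and 166 in the KO female. The groups did not overlap, yet −1.78 ± 0.63 did not pass (adjusted p = 0.231).

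**Figure D2:**
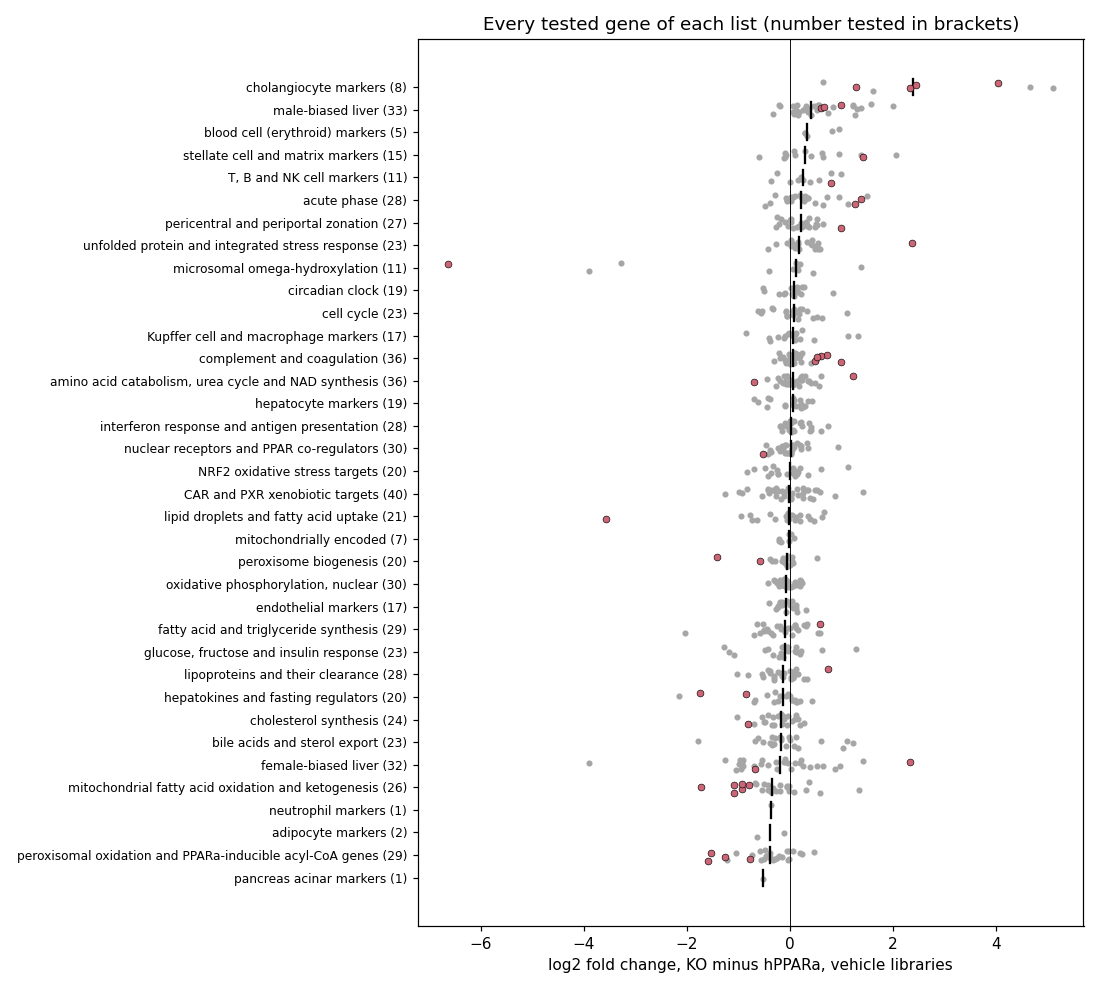
Log2 fold change (KO minus hPPARa, vehicle) of every tested gene in each list, with red points for adjusted p under 0.05, grey points for the others, a black bar at the list's median and the number tested in brackets. Red points lie left of 0 in the mitochondrial and peroxisomal oxidation lists (6 and 4 genes), right of 0 in the complement list (5 genes) and cholangiocyte markers (4 genes), and are missing from the CAR and PXR, NRF2 and interferon lists.

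The lists for other xenobiotic sensors are too short for a count of 0 to be told apart from the 1.6% called among all genes tested. Of 40 tested targets of CAR and PXR, the receptors for drugs and other foreign compounds, 0 were called, with a median of −0.0221. Cyp3a11 gave −0.18 ± 0.12 (adjusted p = 0.519) and Cyp2b10 0.87 ± 0.70 (adjusted p = 0.595), which was 2.11 without the KO female (adjusted p = 0.278). None of the 20 tested targets of NRF2, the oxidative stress factor, was called, nor any of 28 interferon genes. Among 30 nuclear receptors and co-regulators, Nr2f6, an orphan receptor of the COUP-TF family, fell by 0.52 ± 0.11 on the log2 scale (adjusted p = 0.0324; 0.167 without the KO female). Pparg, the relative of PPARα that directs fat storage, had 7.15, 7.49 and 12.4 CPM in hPPARa females but 2.90 and 2.97 in hPPARa males, against 8.04, 7.78 and 6.74 in KO males and 11.7 in the KO female. The 3 KO males exceeded both hPPARa males, and the KO female lay within the hPPARa female range. With sex as a covariate the difference was 0.94 ± 0.24 (adjusted p = 0.0756). In the males alone it was 1.34 (adjusted p = 0.0354).

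Complement and coagulation genes, made largely by hepatocytes, had 5 of 36 tested members higher and 0 lower, with a median of 0.063. Over all genes tested, 0.838% were called higher and 0.764% lower. C2, an early component of the classical pathway, had 31.2 to 50.1 CPM in hPPARa and 57.9 to 89.9 CPM in KO (0.72 ± 0.12, adjusted p = 0.0109). C1ra, the protease that starts that pathway, rose by 0.49 ± 0.10 (adjusted p = 0.0324) and Pros1, the anticoagulant protein S, by 0.51 ± 0.11 (adjusted p = 0.0407). C6 and C8a, parts of the membrane attack complex, are male-biased. C8a had 204 to 227 CPM in hPPARa females and 288 in the KO female, but 750.5 and 861 in hPPARa males and 1263, 1376 and 1325 in KO males (0.60 ± 0.11, adjusted p = 0.0191). In each sex the KO libraries were above the hPPARa libraries. C6 showed the same order, from 13.6 to 14.9 CPM against 37.6 in females and 205 to 278 against 316 to 483 in males (1.0 ± 0.16, adjusted p = 0.0111). Without the KO female only C8a stayed called (adjusted p = 0.0418).

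Of 28 acute phase genes, 2 rose and 0 fell, beside 0.838% and 0.764% of all genes tested. Saa1, a serum amyloid A protein with a near-identical neighbour in Saa2, had 26.5 to 46.9 CPM in hPPARa and 66.5 to 136 CPM in KO (1.37 ± 0.26, adjusted p = 0.0434). Il1rn, the interleukin-1 receptor antagonist, rose by 1.25 ± 0.25 (adjusted p = 0.0304), with 14.4 CPM in the KO female as its highest value. Neither stayed called without that library (adjusted p = 0.172 and 0.314).

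Among 36 genes of amino acid and urea metabolism, 1 rose and 1 fell, beside 0.838% and 0.764% of all genes tested. Such counts are no result about the list. Bckdhb, a subunit of the branched-chain ketoacid dehydrogenase, had 65.3, 78.9 and 68.9 CPM in hPPARa females, 68.9 and 67.7 in hPPARa males, 193, 134 and 194 in KO males and 143 in the KO female. It rose by 1.22 ± 0.14 (adjusted p = 0.000707; 1.34 without the KO female). Arg1, the last enzyme of the urea cycle, had 1519 to 2182 CPM in hPPARa and 765 to 1188 CPM in KO (−0.71 ± 0.13, adjusted p = 0.0194; 0.131 without the KO female). Asns, the asparagine synthetase, was the only call among 23 genes of the unfolded protein and integrated stress responses. It had 0.660 to 1.51 CPM in hPPARa, 5.43, 4.92 and 9.96 in KO males and 4.06 in the KO female (2.37 ± 0.31, adjusted p = 0.00251; 0.0184 without the KO female).

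Male-biased liver genes leaned upwards, with 3 of 33 tested higher, 0 lower, 3 negative values and a median of 0.41. Over all genes tested, 0.838% were called higher and 48.2% had negative values. The calls were C6, C8a and Lifr, the receptor of leukaemia inhibitory factor (0.66 ± 0.15, adjusted p = 0.0484). Without the KO female C8a alone stayed called, with a median of 0.503. Of 32 female-biased genes, 1 rose and 1 fell, beside 0.838% and 0.764% of all genes tested, which is no result about the list. Prom1, a membrane glycoprotein described with the bile duct genes, rose, and Rtn4, a shaper of the endoplasmic reticulum, fell (−0.68 ± 0.15, adjusted p = 0.0464). Neither stayed called without the KO female (adjusted p = 0.587 and 0.0893).

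Several of the largest and most stable differences lay outside the lipid lists. Meg3 and Rian are maternally expressed noncoding RNAs of the imprinted Dlk1-Dio3 cluster. Meg3 had 2.76, 3.03 and 2.81 CPM in hPPARa females and 2.83 and 3.17 in hPPARa males, against 38.2, 50.3 and 38.6 in KO males and 12.3 in the KO female. The hPPARa values were tight, and the KO female lay between them and the KO males. The log2 fold change of Meg3 was 3.15 ± 0.31 (adjusted p = 0.00156), and 3.82 without the KO female. Rian had 0.300 to 1.45 CPM in hPPARa, 6.28, 10 and 10.8 in KO males and 2.73 in the KO female (3.0 ± 0.28, adjusted p = 0.000151).

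Acpp, an acid phosphatase, had 2.39 to 5.15 CPM in hPPARa and 0 to 0.196 CPM in KO. That is 249 counts against 4, a ratio per total count of 50.6 with a 95% interval of 19.5 to 187 for counting error only (adjusted p = 0.000592). Rpl29, a ribosomal protein gene with many processed copies elsewhere in the genome, had 6.20 to 8.89 CPM in hPPARa and 0.154 to 1.06 CPM in KO (−4.02 ± 0.39, adjusted p = 0.000279). Reads of Rpl29 may be shared with those copies. Of the genes beside Rpl29 and Acpp in the RefSeq table, 11 and 7 were tested and 0 were called. Counts of 0 in so few genes cannot be told apart from the 1.6% called among all genes tested.

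Serpinb1a, an inhibitor of neutrophil proteases, had 3.12 to 5.88 CPM in hPPARa, 26.4, 19.1 and 20.5 in KO males and 38.7 in the KO female (2.63 ± 0.21, adjusted p = 8.82e-05). Blnk, an adaptor of B cell receptor signalling, had 2.08 to 3.30 CPM in hPPARa and 9.34 to 17.0 CPM in KO (2.44 ± 0.19, adjusted p = 5.34e-05). Of 11 tested lymphocyte markers beside it, 1 was called, the immunoglobulin chain Igkc, which gave 0.79 ± 0.14 (adjusted p = 0.0173) and was lost without the KO female (adjusted p = 0.216). Their part in the Blnk difference was not tested.

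A further 4 of the genes described here fell in every leave-one-out fit. Cebpb, a transcription factor of hepatic gluconeogenesis and the acute phase, had 98.4 to 175 CPM in hPPARa, 21.1, 28.7 and 29.9 in KO males and 64.3 in the KO female (−1.69 ± 0.18, adjusted p = 0.000869). Rab30, a small GTPase of the Golgi, had 7.75 to 16.0 CPM in hPPARa and 1.20 to 3.40 CPM in KO (−2.22 ± 0.21, adjusted p = 0.000145). Slc25a34, a mitochondrial carrier family member, had 3.10 to 5.35 CPM in hPPARa and 0.433 to 1.44 CPM in KO (−2.28 ± 0.28, adjusted p = 0.00115). Qpct, the enzyme that forms N-terminal pyroglutamate, had 3.72 to 8.23 CPM in hPPARa and 1.05 to 1.49 CPM in KO (−1.88 ± 0.22, adjusted p = 0.000869). The groups were apart for each of them.

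**Figure D3:**
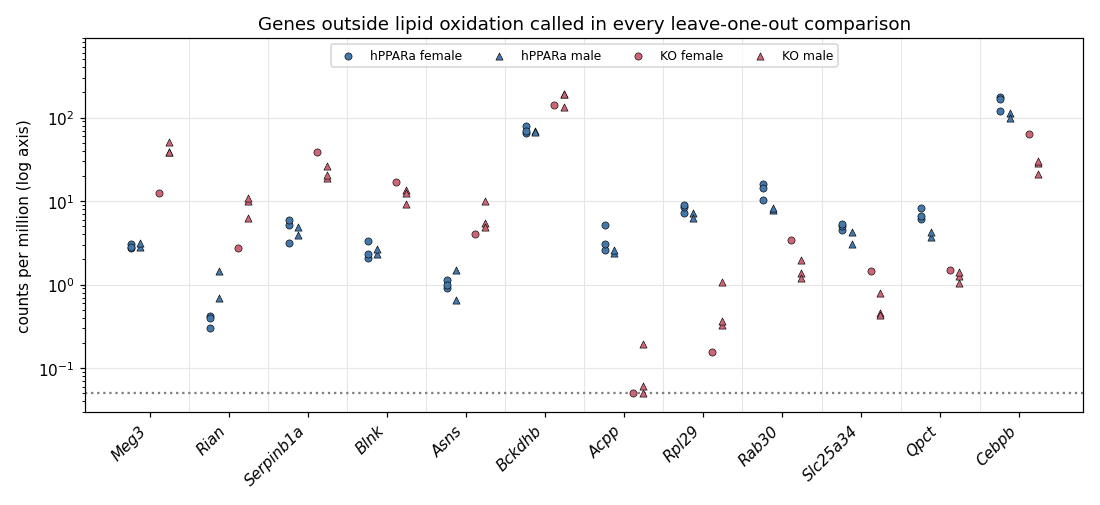
CPM (log axis) of 12 genes outside lipid oxidation that were called in all 9 leave-one-out fits, 1 point per vehicle library, circles for females, triangles for males, blue for hPPARa and red for KO; the dotted line at 0.05 CPM holds values at or below it. Meg3 reaches 38.2 to 50.3 CPM in KO males and 12.3 in the KO female against 2.76 to 3.17 in hPPARa, and Acpp is at 0 to 0.196 CPM in KO.

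Cholangiocyte markers, genes of the bile duct lining, were higher in KO on vehicle and above all in the KO female. Their summed level over 10 genes was 30.4 to 40.5 CPM in hPPARa, 52.6 to 73.7 CPM in KO males and 265 CPM in the KO female. Of 8 tested markers, 4 were called higher and 0 lower (Spp1, Tspan8, Prom1 and Epcam), with a median of 2.39. Over all genes tested, 0.838% were called higher and 0.764% lower. Without the KO female, 1 was called, Spp1, and the median was 1.15. In the PFOA libraries, 0 of 7 tested markers were called, with a median of −0.054. So short a list cannot be told apart from the 19.5% called there among all genes tested. The difference between exposures was negative for all 8 tested and passed for 1, with a median of −2.73, beside 1.38% called among all genes. The KO female is part of that median, which is not given here without it. Spp1, the secreted phosphoprotein osteopontin, had 30.2 to 31.1 CPM in hPPARa females, 24.9 and 25.1 in hPPARa males, 47.0, 44.0 and 54.7 in KO males and 102 in the KO female (1.27 ± 0.14, adjusted p = 0.000539; 0.96 without the KO female, adjusted p = 0.00595). The keratin Krt19 reached 60.6 CPM in the KO female against 0.201 to 3.53 CPM in the other 8 libraries, and the mucin Muc1 55.3 CPM against 0.334 to 4.02 CPM.

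Other epithelial genes followed the same library. Tspan8, Ehf, Elf3, Serinc2, Kif12, Prom1 and Epcam were called with log2 fold changes from 2.32 to 4.04, and each lost its call without the KO female (adjusted p = 0.239 to 0.587). For Tspan8, a tetraspanin and the highest of them, the levels were 0.126 to 0.802 CPM in hPPARa, 0.327, 1.13 and 2.04 in KO males and 13.6 in the KO female. Of 15 tested stellate cell and matrix markers, 1 rose: Col1a1, a chain of type I collagen, with 3.81 to 5.41 CPM in hPPARa, 9.11 to 13.7 in KO males and 14.4 in the KO female (1.41 ± 0.18, adjusted p = 0.00162; 0.0453 without the KO female). This 1 call, beside 0.838% called higher among all genes tested, is no result about the list. The summed level of the stellate cell and matrix markers overlapped, at 315 to 504.5 CPM in hPPARa and 302 to 508 CPM in KO. None of 17 macrophage or 17 endothelial markers was called. Lists of that length cannot be told apart from the 1.6% called among all genes tested. The part of these cell markers in other differences was not tested.

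**Figure D4:**
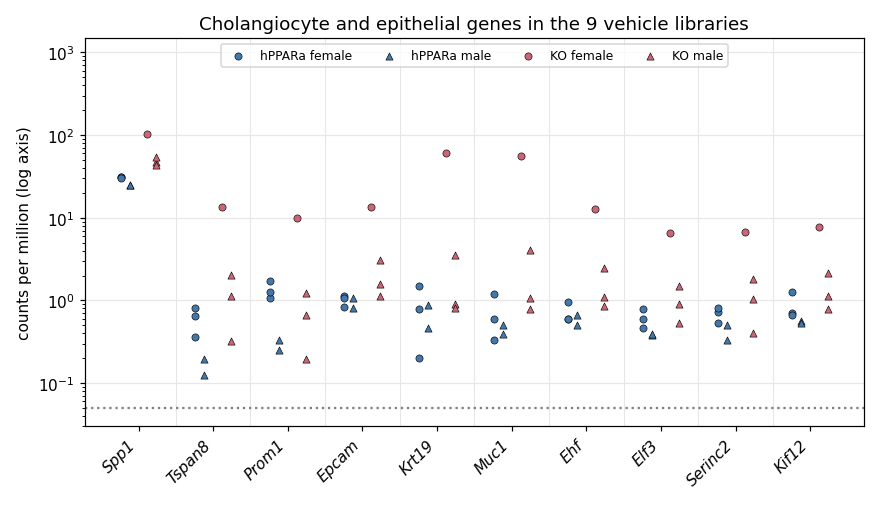
CPM (log axis) of 10 bile duct and epithelial genes, 1 point per vehicle library, circles for females, triangles for males, blue for hPPARa and red for KO; the dotted line marks 0.05 CPM. The KO female is the highest point for every gene, for example 13.6 CPM for Tspan8 and 60.6 CPM for Krt19, while for Spp1 the KO males (44.0 to 54.7 CPM) also lie above hPPARa.

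In the males alone (3 KO against 2 hPPARa), 69 of 13441 genes were called (0.513%), 22 higher (0.164%) and 47 lower (0.35%). Slc25a20 (−1.84, adjusted p = 0.00114), Plin5 (−3.79, adjusted p = 7.53e-05), Angptl4 (−2.04, adjusted p = 0.00018) and Meg3 (3.80, adjusted p = 7.33e-05) were among them. The female side had 1 KO library and so no spread of its own. The test of whether the genotype difference itself differed by sex, with the spread of the other groups assumed for that library, called 2 of 13486 genes (0.0148%), Ezr and Cd24a. Ezr, which links membrane to cytoskeleton, had 39.2 CPM in the KO female and 4.28 to 7.03 CPM in the other 8 libraries. Cd24a, a glycoprotein of progenitor and duct cells, had 39.7 against 1.13 to 3.09 CPM.

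The genotype difference was also looked up in the 11 PFOA libraries (6 KO, 5 hPPARa), which share no library with the vehicle comparison. There 2649 of 13553 genes were called (19.5%), 1279 higher (9.44%) and 1370 lower (10.1%). Of the 103 genes lower on vehicle, 100 were tested on PFOA, 94 had the same sign, 75 were called lower and 0 higher. Of the 113 genes higher on vehicle, 111 were tested, 97 had the same sign, 52 were called higher and 5 lower. Plin5 (−3.99 ± 0.18), Slc25a20 (−1.63 ± 0.06), Eci2 (−1.52 ± 0.09), Rab30 (−2.31 ± 0.19) and Meg3 (2.82 ± 0.40) were called on PFOA with values near those on vehicle. Spp1 (0.16 ± 0.34, adjusted p = 0.79), Col1a1 (0.30 ± 0.76, adjusted p = 0.824) and Asns (0.48 ± 0.39, adjusted p = 0.43) were not called on PFOA, and the difference between exposures did not pass for them (adjusted p = 0.277 to 0.615).

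The test of the difference itself, genotype by exposure over all 20 libraries, called 198 of 14341 genes (1.38%), where the KO minus hPPARa value was higher on PFOA for 77 (0.537%) and lower for 121 (0.844%). Of the genes called on vehicle, 10 that were higher and 8 that were lower were among them. Ehhadh, at −0.25 on vehicle, was at −2.84 ± 0.19 on PFOA, and the difference of −2.52 passed (adjusted p = 7.1e-06). Pex11a went from −0.59 to −1.74 ± 0.11 (difference −1.06, adjusted p = 0.00815). Hsd17b11, a droplet-bound dehydrogenase, had −0.30 ± 0.13 on vehicle and −2.12 ± 0.08 on PFOA (difference −1.78, adjusted p = 9.52e-07). For Slc25a20, Plin5 and Eci2 the difference between exposures did not pass (adjusted p = 0.588 to 0.916). The mitochondrial list had 6 of 26 genes lower on vehicle and 23 of 26 on PFOA, and the peroxisomal list 4 of 29 and 21 of 29, beside shares of all genes called lower of 0.764% and 10.1%. Those are counts from separate fits. The difference itself passed for 4 of the 26 and 6 of the 29, each lower on PFOA, beside 0.844% of all genes.

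**Figure D5:**
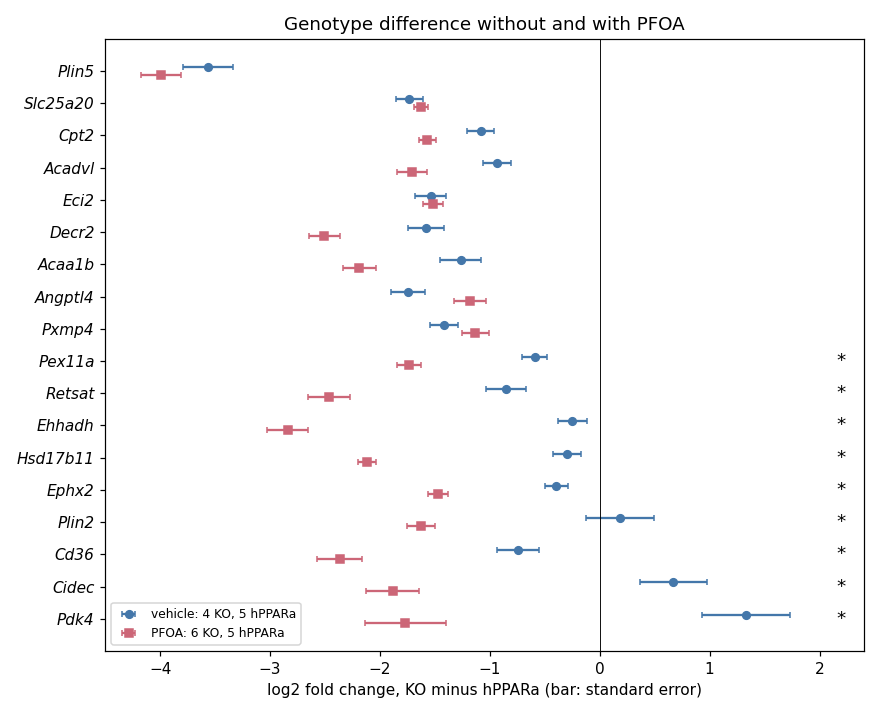
Log2 fold change (KO minus hPPARa) with its standard error for lipid and peroxisome genes named in the text. Values are from the vehicle libraries (blue circles, 4 KO and 5 hPPARa) and the PFOA libraries (red squares, 6 KO and 5 hPPARa). An asterisk marks a genotype by exposure term with adjusted p under 0.05. Plin5, Slc25a20 and Eci2 lie close together in both exposures, while Ehhadh moves from −0.25 to −2.84.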

How the data were processed

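The authors deposited 2 tables of whole-number read counts per gene symbol, 1 for each genotype, covering the same 53599 symbols in 20 libraries of bulk liver RNA. The submitters' processing notes name STAR 2.5.3, featureCounts 1.6.1, build GRCm39, edgeR 3.36.0 under R 4.1.0, cutadapt 1.15 and FastQC 0.11.5. The sources used here give no roles, annotation or strand setting, so overlapping, antisense and near-identical genes are uncertain.

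The tables were joined by symbol, and the 9 vehicle columns were taken by title. The 9 libraries had no count for 20230 symbols. The test was that of edgeR 4.0.16 (R 4.3.3): default filter on low counts by genotype (so that no gene was tested on the strength of the lone KO female), TMM factors from 0.926 to 1.08, sex as an additive term, robust quasi-likelihood test, Benjamini-Hochberg adjustment over all genes tested and a threshold of 0.05. CPM used the TMM factors. An SE is the log2 fold change divided by the square root of F. Libraries of a group differed by more than counting noise (chi-square per gene 19.8 to 45.7, where noise gives about 1). Scripts were tested on simulated data.

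Members, gene lists and tests were chosen with earlier results of these data known. Named genes were Ppara, the 15 highest and 15 lowest called genes averaging 1 CPM or more (predicted symbols aside), up to 4 genes per list by smallest adjusted p, 20 preset lipid and receptor targets, and for interactions the 5 smallest adjusted p. Some are left out by role, and some are not reported here. Eci1, Pros1, Krt19, Muc1 and the genes with a promoter match were named after their values were seen. Alternatives were DESeq2 1.42.0, its size factors, other filters, other terms for sex, 1 model of all 20 libraries, a replicate block, and leaving out each library. For the PFOA comparison, and for genotype by exposure apart from DESeq2, the fit without the KO female and the equal weight for the sexes, they were chosen after seeing the data. Promoters are RefSeq's, of GRCm38.p6, so no coordinates join them to the counts.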

Additional observations from a re-analysis of the deposited data

Results flagged for a closer look

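Groups of the vehicle comparison held 1 to 3 libraries by genotype and sex, too few to look for single libraries far from the rest. Genes were singled out where the genotype difference itself differed between the sexes or between the exposures, by an interaction test at an adjusted p under 0.05. For the 2 genes between the sexes, the male minus female difference was −2.60 for Ezr and −3.65 for Cd24a (both adjusted p = 0.0223). Both rest on the KO female, the only library of its group.

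Between the exposures, the PFOA minus vehicle difference was tested over all 20 libraries. It was negative in most of the named genes that passed: −2.52 for Ehhadh, −1.78 for Hsd17b11, −1.16 for Ephx2 (an epoxide hydrolase), −1.66 for Retsat and −1.06 for Pex11a. Droplet and uptake genes gave −1.78 for Plin2, −1.55 for Cd36 and −2.41 for Cidec, and the kinase Pdk4 gave −3.03. Serpinb1a gave −1.21, Acacb −1.14, Rtn4 −1.10 and Nrp2, a semaphorin co-receptor, −1.62. Prom1 gave −2.94 and Serinc2 −6.44, and both are high on vehicle in the KO female above all. That library was also the highest on vehicle for Plin2 (315 CPM), Pdk4 (14.7), Cidec (4.73) and Acacb (134). It was highest for Nrp2 (30.1) and Serpinb1a (38.7) too, and lowest for Retsat (49.8) and Ephx2 (281). The differences of single genes are not given here without it, and the genes called then fell from 198 to 106. Cyp3a11 alone was positive among them, at 1.17. Adjusted p ran from 9.52e-07 for Hsd17b11 to 0.0423 for Prom1.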

How the results depend on the processing

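The count of 216 genes on vehicle was 204 with DESeq2's size factors, 304 with the filter by genotype and sex and 302 with equal weight for the sexes. It was 528 with DESeq2 (296 higher, 232 lower), 950 without the filter on low counts (598 and 352), 675 in 1 model of all 20 libraries, 128 without the sex term (50 and 78) and 67 to 197 with 1 library left out. The lowest counts were 67 without the KO female, 88 and 91 without hPPARa male replicate 2 or 1, 114 without KO male replicate 1 and 129 without hPPARa female replicate 2. None of the 216 changed sign in any of these fits. Of 78 named and tested genes, 57 were called, 17 of them in every alternative. Of the 21 not called, 13 passed in at least 1 alternative, among them with DESeq2 Vnn1 (adjusted p = 0.00141), Fabp1 (0.00176), Cyp4a10 (0.00447), Pparg (0.0141), Cd36 (0.0149), Scd1 (0.021), Pdk4 (0.0229) and Fasn (0.045), and 2 changed sign, each without the KO female. With 1 library left out, Plin2 ran from −0.325 to 0.426 and Cpt1a from −0.0919 to 0.567. Some genes named as held in all leave-one-out fits lost their call in other alternatives. Col1a1 lost it in the model of 20 libraries and Spp1 without the sex term. With the replicate block, Spp1, Meg3, Slc25a34, Cebpb, Acadvl and Acaa1b lost theirs. In males, 69 became 205 with DESeq2, 465 without the filter, 111 in the model of 20 libraries and 15 to 114 with 1 library left out (15 and 34 without hPPARa replicate 1 or 2, 20 and 114 without KO replicate 1 or 3). The 2 genes of genotype by sex became 29 with DESeq2, 157 without the filter, 5 with the filter by genotype and sex, and 0 to 5 with 1 library left out. The count of 0 without KO male replicate 2 is edgeR's. Leaving out an hPPARa male leaves 1 library in that group, and calls there were not all in the direction of the full fit. At an unadjusted p under 0.05 the full fit held 862 genes. On PFOA, 2649 became 1832 to 2696 with 1 library left out. Genotype by exposure went from 198 to 439 with DESeq2, 923 without the filter, 316 with equal weight for the sexes and 83 to 222 with 1 library left out. Among the PFOA libraries the lowest came from leaving out KO male replicate 2 (83) and hPPARa female replicates 1 and 2 (85 and 117), and on vehicle they were 106 without the KO female, and 125 and 128 without KO male replicate 3 or hPPARa male replicate 2. The cause of each change was not tested.

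Across genotypes the titles share numbers 1 and 2 in males and number 1 in females. The male numbers gave correlations of deviations of 0.23 and 0.131, and the lone KO female has no deviation from its group, so they were taken as numbers only. With a replicate block the counts were 47 on vehicle, 348 in males and 1617 on PFOA. The single KO female limits what can be said of females, and at 14973673 to 17951324 counts a library, genes near 0 such as Acpp and Cyp4a32 rest on few counts.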

Other observations

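Several called genes outside the lists followed sex as well as genotype. Cib3, a calcium-binding protein, had 0.901 to 1.0 CPM in hPPARa females and 15.8 in the KO female, 7.75 and 16.3 in hPPARa males and 38.5 to 67.2 in KO males, so KO was above hPPARa in each sex (2.69 ± 0.42, adjusted p = 0.0315; 0.0418 without the KO female). Slc17a8, a vesicular glutamate transporter, ran the other way, with 8.95 to 17.5 CPM in hPPARa females and 1.75 in the KO female, and 39.0 and 50.9 in hPPARa males against 11.4 to 17.6 in KO males (−1.98 ± 0.29, adjusted p = 0.0146; 0.0322 without the KO female). On PFOA the genotype difference of Slc17a8 was −0.28 ± 0.17 (adjusted p = 0.265), and the difference between exposures did not pass (adjusted p = 0.217).

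Fmn2, an actin nucleator, had 0.300 to 1.98 CPM in hPPARa, 5.51 to 9.87 in KO males and 1.90 in the KO female (2.20 ± 0.36, adjusted p = 0.0109; 0.0552 without the KO female). Foxp2, a forkhead transcription factor, had 1.85 to 4.86 CPM in hPPARa and 0.131 to 0.931 CPM in KO, with no overlap (−2.10 ± 0.40, adjusted p = 0.0219; 0.176 without the KO female). Both were called in the same direction on PFOA, at 2.0 ± 0.27 for Fmn2 and −1.63 ± 0.25 for Foxp2. Cdh1, the epithelial cadherin, was the only call among 27 zonation genes, with 12.7 to 25.6 CPM in hPPARa and 28.4 to 42.7 CPM in KO (0.99 ± 0.21, adjusted p = 0.0491; 0.338 without the KO female).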
